A study of Rattus norvegicus with 9 samples.

Results

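The neurons compared here are rat retinal ganglion cells that received myr-Set-β, a form of Set-β named for the myristoyl tag that directs it to membranes (group myr_Set), and ganglion cells that received the fluorescent protein mCherry as control (group mCherry). They make up 6 of the 9 arrays of the series, 3 per group, and were taken by their titles. The other 3 arrays held wild-type Set-β (wt_Set) and served here to estimate the spread, in the mean that set the level filter, and for 1 closing comparison. All cells came from Sprague Dawley rats at postnatal day 4 and were purified by immunopanning, a capture on antibody-coated dishes, and transfected by electroporation at once. Every group, the controls included, also received the green fluorescent plasmid pMAX-GFP. Green cells were sorted the following day and kept in culture on laminin, and RNA was collected 3 days after transfection and amplified. The titles call the arrays biological replicates but do not name litters or cultures, so the p-values given here measure only how far these arrays spread, which may be technical. The description covers 10518 genes of the 18166 with a single symbol on the array, those whose signal passed a level filter.

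Set binds histones in the nucleus as a chaperone, masks histone tails from acetylation and inhibits protein phosphatase 2A, a serine/threonine phosphatase with many subunits. Myristoylation attaches a fatty acid to the first glycine of a protein and helps it dock on membranes, away from the nucleus. Ganglion cells are the output neurons of the retina, and their ability to extend axons declines around birth. The comparison with mCherry asks which transcripts differ when Set-β is directed to membranes in these neurons.

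Ganglion cell identity was visible on all 6 arrays. Of 32 ganglion cell markers, 28 passed the level filter, and Atoh7, Irx2, Opn4 and Chrna6 did not. Stmn2, a microtubule regulator of growing neurites, had log2 intensities of 12.19, 11.34 and 11.74 in the mCherry arrays and 10.92, 11.32 and 11.77 in the myr_Set arrays. Thy1, a surface protein of ganglion cells, had 9.76, 9.25 and 9.66 against 8.80, 9.21 and 9.63. The groups overlapped for both. Photoreceptor and bipolar markers were mostly below the filter, with 3 of 20 measured, and glial markers with 8 of 21, Gfap, Slc1a3 and Rlbp1 among those below it. Other cell types were not absent. The measured glial markers summed to 2442 to 6234 in mCherry, and 13 mural, endothelial and fibroblast markers to 1453 to 12817, beside 16035 to 26769 for the ganglion cell markers. Tagln, of smooth muscle, read higher than Stmn2 in arrays 2 and 3 of both groups, as given below. In a bulk sample, fewer cells of a type and less RNA per cell cannot be told apart.

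Signal for abundant transcripts was lower in myr_Set arrays 1 and 2 than in the mCherry arrays, and not in array 3. The distance between the 10th and the 90th percentile of log2 intensity was 4.54, 4.29 and 4.53 in the mCherry arrays and 3.82, 4.18 and 4.46 in the myr_Set arrays. The group difference was -0.30 (exact permutation test, two-sided, p = 0.2, where 3 against 3 cannot go below 0.1). In the most abundant of 10 equal groups of genes, myr_Set array 1 lay at a median of -1.44 log2 units from the mCherry mean, array 2 at -0.46 and array 3 at 0.03. In the lowest group these medians were 0.09, -0.01 and 0.03, so that the arrays parted only as the level increased. Odorant receptor genes, which ganglion cells are not known for expressing, serve here as a mark of background. Only the 235 that passed the level filter were used, so receptors of lower signal were left out and the mark lies above theirs. The array medians of the 235 were 6.81, 7.27 and 7.06 in mCherry and 7.61, 7.41 and 6.93 in myr_Set (difference 0.27, exact permutation test, two-sided, p = 0.3). The array with the narrowest signal range was thus also the one with the highest receptor signal.

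**Figure D1:**
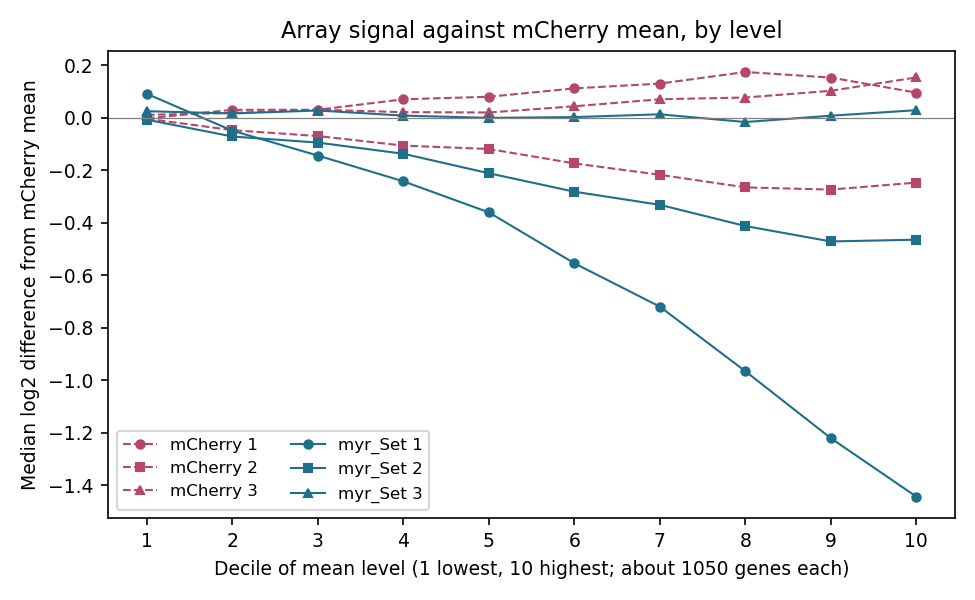
Median log2 difference of each array from the mCherry mean (vertical axis) in 10 equal groups of genes ordered by mean level (horizontal axis); solid lines are the 3 myr_Set arrays and dashed lines the 3 mCherry arrays. The line of myr_Set 1 drops to -1.44 in the most abundant genes, that of myr_Set 2 to -0.46, and that of myr_Set 3 stays near 0.

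Each gene was therefore also read against genes of similar signal. Its level-relative difference is the difference myr_Set minus mCherry less the median difference of the 200 genes nearest to it in mean level. A value of 0 means that a gene lay where genes of its level lay. Over all 10518 genes the plain difference was below 0 in 74.4%, with a median of -0.26, and the level-relative difference was below 0 in 49.7%. The median of all genes was -0.09 after cyclic loess, which removes level-dependent differences between arrays, -0.12 after quantile normalization, and -0.11 without myr_Set array 1. The level-relative differences had an SD of 0.30, with 5% of genes below -0.47 and 5% above 0.48. The 235 odorant receptors measured had a median level-relative difference of 0.39, higher than 0 in 203 of them, and 0.13 without myr_Set array 1. Against the mCherry arrays, their level-relative medians were 0.81, 0.42 and -0.14 in myr_Set arrays 1, 2 and 3. These values are given as a mark beside groups of low-signal genes.

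No gene passed the test. With limma over 18343 transcript clusters, 0 of 10518 genes had a Benjamini-Hochberg adjusted p under 0.05 (0%), and the smallest adjusted p was 0.447. At an unadjusted p under 0.05 there were 1029 genes (9.78%), of which 905 were lower in myr_Set (8.6%) and 124 higher (1.18%). Without myr_Set array 1, the unadjusted count was 270, with 204 lower and 66 higher. The higher genes made up 12.1% of the unadjusted calls on the deposited scale, 31.2% after quantile normalization (212 of 679) and 32% after cyclic loess, where 511 genes were lower (4.86%) and 241 higher (2.29%). The 3 myr_Set arrays lay below all 3 mCherry arrays for 849 genes (8.07%) and above them for 290 (2.76%). After cyclic loess as well, 525 (4.99%) and 236 (2.24%) were apart in the same direction. Limma with array weights called 3557 genes, in a fit whose weights did not converge and gave myr_Set array 2 a weight of 165 against 0.151 to 1.69 for the others.

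**Figure D2:**
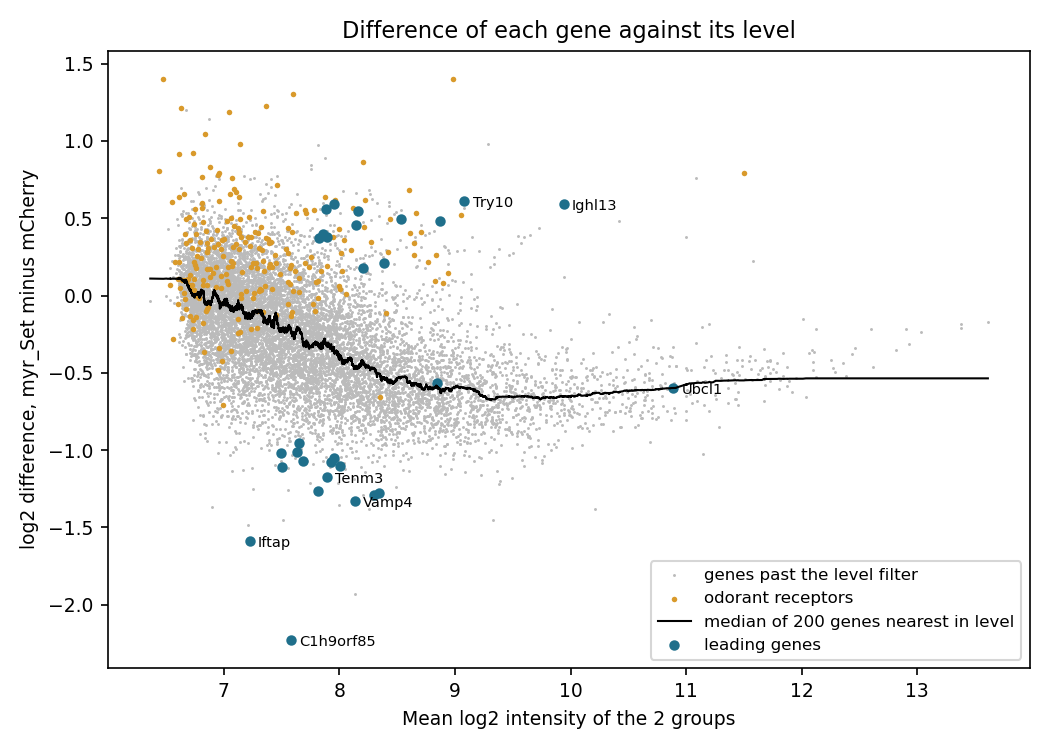
Log2 difference myr_Set minus mCherry (vertical axis) against mean log2 intensity of both groups (horizontal axis) for 10518 genes, with odorant receptors in orange, the leading genes in blue and the median of the 200 genes nearest in level as a black line. The line runs from above 0 at low signal to about -0.6 at high signal, and the leading genes lie off it on both sides, apart from Ubcl1 and Vma21.

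Receptors, miRNA genes and placeholder names were then left out, as were genes with a mean under 8 in the higher group. Of the rest, 198 kept the groups apart before and after cyclic loess, 185 lower and 13 higher in myr_Set. Over all 10518 genes these counts were 525 (4.99%) and 236 (2.24%). The bound of 8 keeps abundant genes, and the plain median was -0.62 in the highest of 10 level groups and 0.03 in the lowest. The split of the 198 therefore depends on the level bound. Of the 198, the 15 with the most negative level-relative difference were C1h9orf85, Iftap, Cadm1, Fam133b, Vamp4, Tenm3, Fto, Cfap418, Cacng2, Pigp, Cenpc, Fgf12, Nkrf, Laptm4b and Cdk11b. Separation of the arrays was part of this choice and so is no further evidence. Their limma adjusted p-values were all 0.447. In 12 of the 15, myr_Set array 1 had the lowest value of all 6 arrays. Each of the 15 read below the median of the measured odorant receptors in at least 1 myr_Set array, and in 0 mCherry arrays. Iftap did so in 3 myr_Set arrays. Cadm1, Fam133b, Vamp4, Tenm3, Cfap418, Cacng2, Cenpc, Laptm4b and Cdk11b did so in 2. The part of background signal in these differences was not tested.

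Iftap, a protein linked to intraflagellar transport, was lower in each myr_Set array by more than a log2 unit relative to level. Its log2 intensities were 8.39, 7.28 and 8.37 in mCherry and 6.29, 6.17 and 6.83 in myr_Set. Those of the myr_Set arrays lay below the odorant receptor medians of the same arrays (7.61, 7.41 and 6.93). The difference was -1.59 ± 0.35 (SE, n = 3 per group), with an unadjusted p of 0.00155 and a limma adjusted p of 0.447. Against genes of its level it was -1.46, and -1.49, -1.71 and -1.20 in the 3 myr_Set arrays taken singly. C1h9orf85 had the lowest value of the list, -2.23 ± 1.03, but read 3.69 in myr_Set array 1 against 8.03 and 7.68 in the others, and the difference was -0.84 without that array.

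Several of the lower genes act at the cell surface and the synapse. Tenm3, a teneurin that matches axons to their targets in the visual system, had 9.02, 8.17 and 8.25 in mCherry and 7.08, 7.28 and 7.57 in myr_Set (difference -1.17 ± 0.28 SE, limma adjusted p = 0.447). Relative to level, its 3 myr_Set arrays lay at -0.73, -0.87 and -0.92, and were thus alike in spite of their different signal ranges. A second cluster of Tenm3 differed less, by -0.26 ± 0.25 (SE).

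Cadm1, an adhesion molecule of synapses, had 8.92, 8.08 and 8.33 in mCherry and 6.39, 7.19 and 7.96 in myr_Set, a difference of -1.26 ± 0.38 (SE). Cacng2, also called stargazin, which carries AMPA receptors to the membrane, had 8.64, 7.72 and 7.64 against 6.46, 6.94 and 7.55, a difference of -1.02 ± 0.35. Both genes were lowest in myr_Set array 1 and nearest the controls in array 3, and in neither did the groups overlap. Fgf12, an intracellular partner of voltage-gated sodium channels, had 8.73, 7.88 and 8.79 against 7.40, 7.48 and 7.29, and here array 3 was the lowest (difference -1.08 ± 0.35).

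Others belong to membrane traffic, lipid anchors and the nucleus. Vamp4, a fusion protein of the Golgi and endosomes, had 8.73, 8.50 and 9.17 in mCherry and 6.92, 7.17 and 8.31 in myr_Set (difference -1.33 ± 0.35 SE). Pigp, a subunit of the enzyme that starts the glycolipid anchor of surface proteins, had 9.78, 8.46 and 8.71 against 7.04, 7.80 and 8.28 (-1.28 ± 0.41), and lay at -0.87, -0.75 and -0.69 relative to level in the single myr_Set arrays. The groups did not overlap, but the mCherry values of Pigp spread over more than 1 log2 unit.

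Fto, a demethylase of RNA, had 9.01, 9.25 and 8.57 in mCherry and 6.87, 7.80 and 8.30 in myr_Set, a difference of -1.29 ± 0.35 (SE). Cenpc, a centromere protein, differed by -1.07 ± 0.27, Nkrf, a repressor of NF-kB target genes, by -0.95 ± 0.29, and Cdk11b, a kinase of transcription and splicing, by -1.10 ± 0.37. The values without myr_Set array 1 were -0.60 for Nkrf and -0.73 for Cdk11b. The groups of these 4 genes did not overlap, which the choice required. The remaining lower genes, Fam133b, Cfap418 and Laptm4b, differed by -1.11 ± 0.30, -1.02 ± 0.31 and -1.05 ± 0.32.

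**Figure D3:**
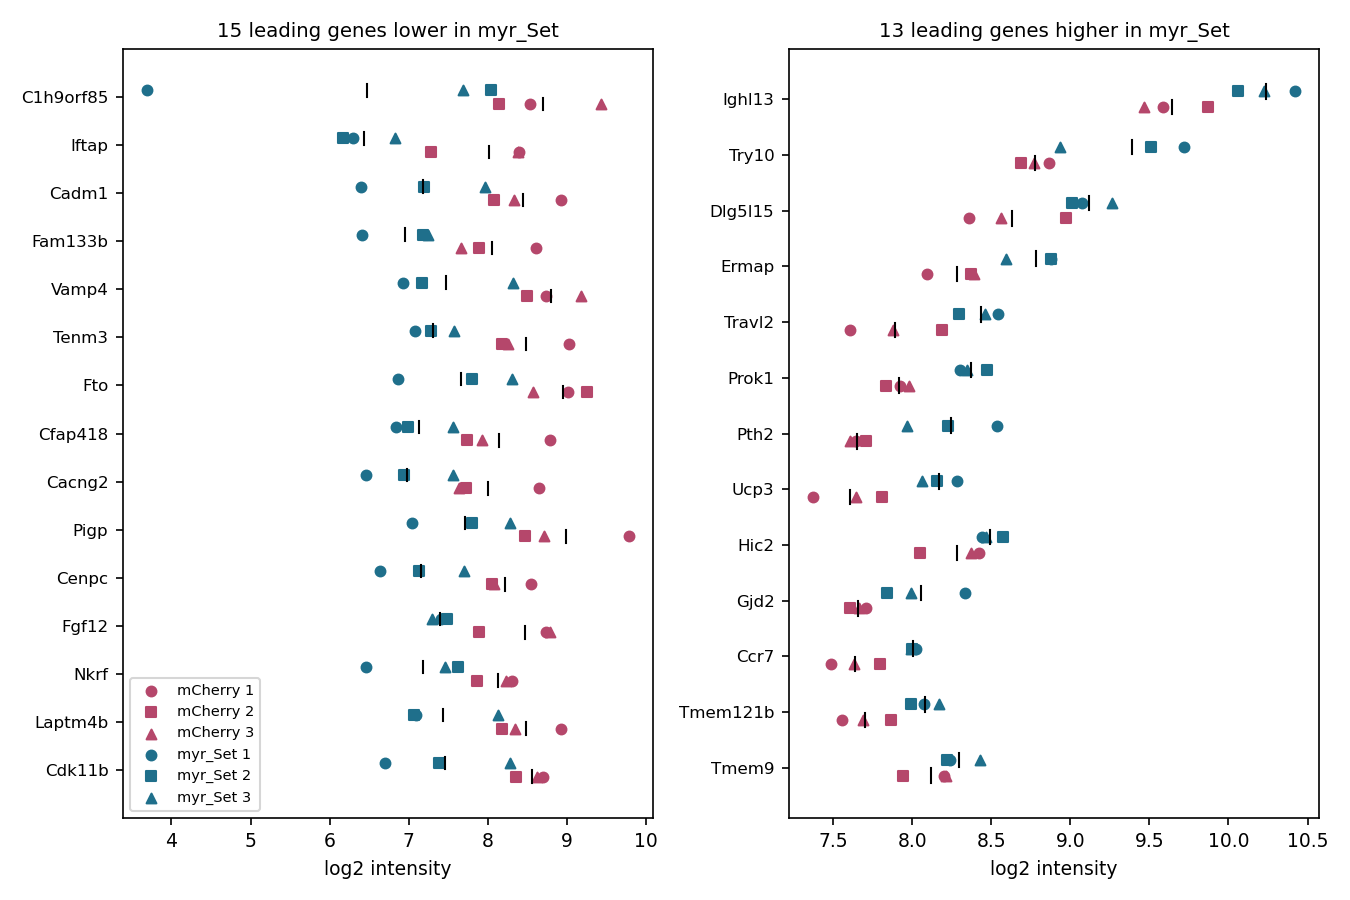
Log2 intensity (horizontal axis) of the 15 leading genes lower in myr_Set (left) and the 13 higher (right); symbols are single arrays, 3 per group, and black ticks are group means. The horizontal scales of the panels differ, and C1h9orf85 in myr_Set 1 stands apart at 3.69.

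The 13 genes higher in myr_Set differed by less, between 0.18 and 0.61 log2 units. They were Ighl13, Try10, Dlg5l15, Ermap, Travl2, Prok1, Pth2, Ucp3, Hic2, Gjd2, Ccr7, Tmem121b and Tmem9. The list is mixed. Ighl13 and Travl2, an immunoglobulin and a T-cell receptor segment, Try10 and Ccr7 are not genes that ganglion cells are known for. Others are of another kind, as Gjd2, a gap junction protein of retinal neurons, and the neuropeptide Pth2. The level-relative differences of the 13 were 0.61 to 1.25, or 0.40 to 0.78 without myr_Set array 1. The odorant receptors had medians of 0.39 and 0.13. The 13 genes were chosen for high values, so lying above a median is no evidence. Single receptors reached such values too, as Or10al27 with 1.25 and 1.24 and Or8h7b with 1.34 and 0.84. These receptors were also picked for high values and are no evidence. Or10al27 had an mCherry mean of 6.45, below the level filter, and passed only through higher values in the other groups. Some other receptors did the same, as Or52r1c (mCherry mean 6.02). The part of background signal in these values was not tested. The list of 15 was completed by Vma21 and Ubcl1, whose level-relative differences were 0.02 and 0.00 and which were lower in myr_Set on the plain scale (-0.57 ± 0.24 and -0.60 ± 0.25).

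Try10, a trypsin gene, had 8.87, 8.69 and 8.77 in mCherry and 9.72, 9.51 and 8.93 in myr_Set (difference 0.61 ± 0.22 SE, limma adjusted p = 0.447). Prok1, a secreted ligand of prokineticin receptors, had 7.92, 7.83 and 7.98 against 8.30, 8.47 and 8.34 (0.46 ± 0.15), so that each group was tight. Pth2, a neuropeptide of the parathyroid hormone family, had 7.64, 7.71 and 7.61 against 8.54, 8.23 and 7.97 (0.59 ± 0.20). In Try10 and Pth2 the order of the myr_Set arrays, with 1 highest and 3 lowest, was that of the receptor medians. Ucp3 and Ccr7 had that order too. The other genes of the higher list, Prok1 among them, did not.

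Ucp3, a mitochondrial carrier, differed by 0.56 ± 0.17 (SE) and Gjd2, the gap junction protein connexin 36 of retinal neurons, by 0.40 ± 0.21, or 0.26 without myr_Set array 1. Ccr7, a chemokine receptor, had 7.48, 7.80 and 7.63 in mCherry and 8.03, 8.001 and 7.99 in myr_Set. Hic2, a transcriptional repressor, was 0.21 ± 0.16 higher, or 0.10 without mCherry array 2. Tmem9 was 0.18 ± 0.16 higher, with 0.09 without mCherry array 2 and 0.11 without myr_Set array 3. For Dlg5l15, 1 cluster was 0.48 ± 0.20 higher, while 6 others of that gene lay between -0.62 and 0.03, and the mean of its clusters gave a level-relative difference of -0.05.

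Most of 39 gene lists had medians close to those of other genes of their level, with members on both sides. Medians of the level-relative difference ran from -0.35 to 0.37 and were within 0.15 of 0 for 32 lists. The abundant housekeeping lists show this. The 74 respiratory chain genes had a plain median of -0.60 and a level-relative one of -0.02. For 38 proteasome subunits these values were -0.61 and -0.001, and for 61 splicing factors -0.59 and -0.03. No member of any list had a limma adjusted p under 0.05, so counts below are of unadjusted p-values, to be read against 8.6% lower and 1.18% higher among all genes. The lower share depended on level. It was 2.0% in the lowest of the 10 level groups, 15.4% in the 9th and 11.5% in the highest, so abundant lists have a higher background. Counts without myr_Set array 1 are to be read against 204 lower and 66 higher of 10518.

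**Figure D4:**
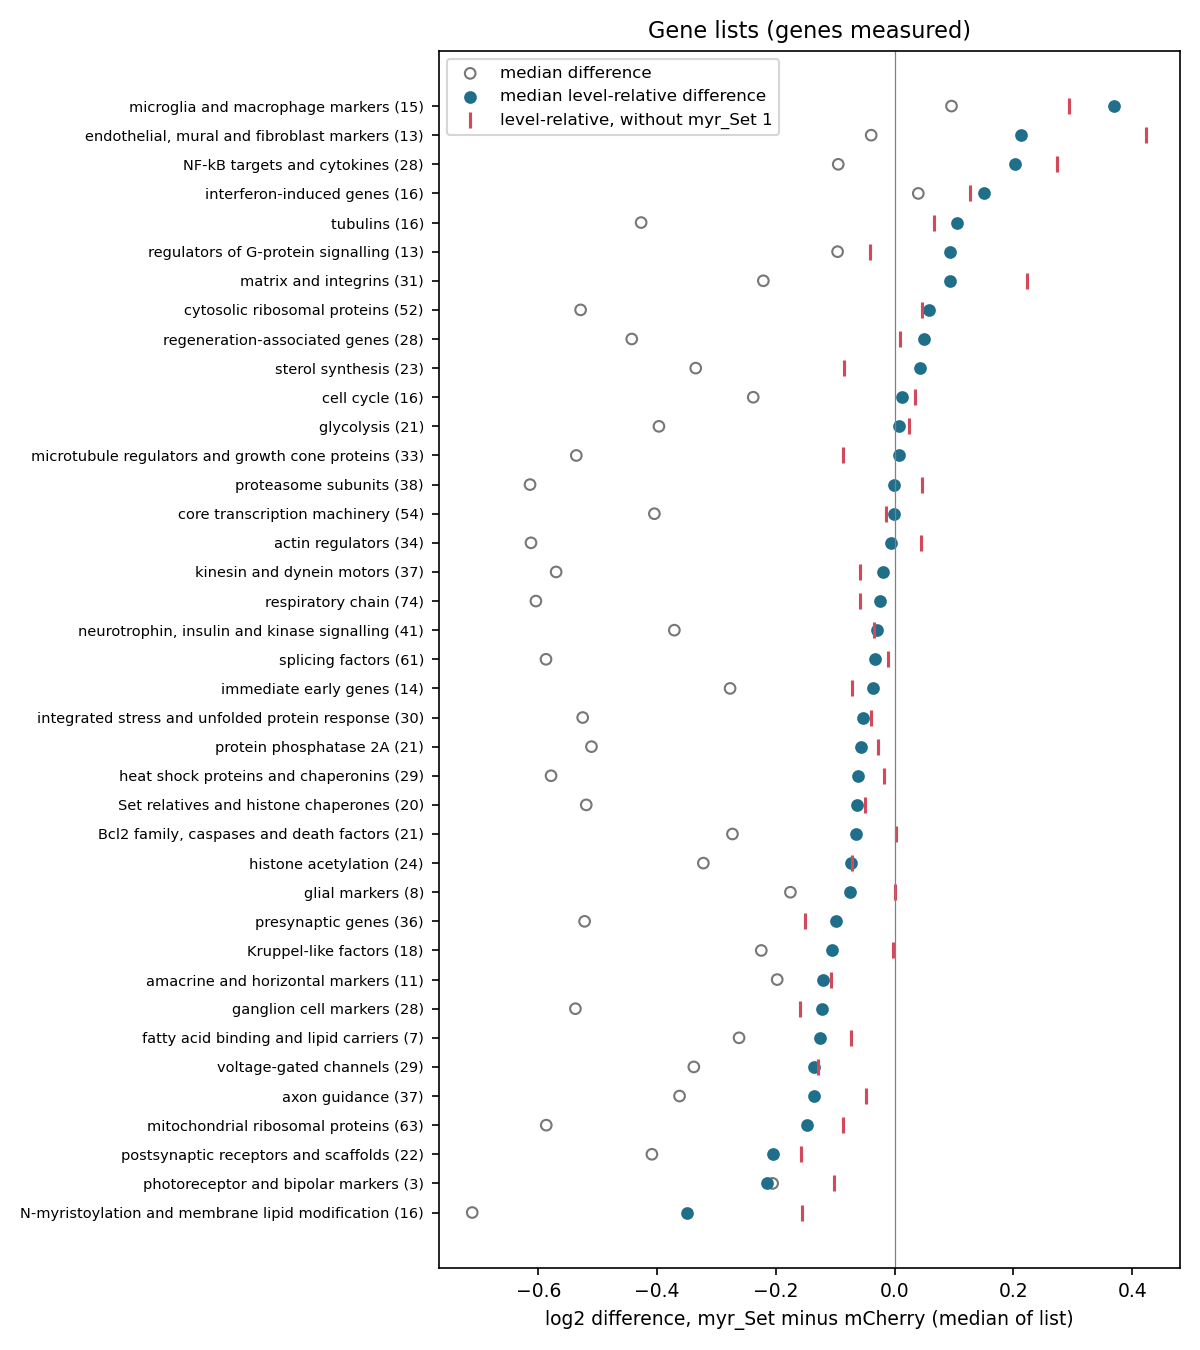
Median log2 difference myr_Set minus mCherry of 39 gene lists, with the number of genes measured in brackets. Open circles are plain differences, filled circles level-relative differences and red ticks level-relative differences without myr_Set array 1; most filled circles lie within 0.15 of 0 while open circles reach -0.71.

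The construct's own gene could be followed only through relatives. None of the clusters used here is named Set. Setsip, whose sequence is close to Set, had 10.70, 10.72 and 10.85 in mCherry and 9.30, 10.04 and 10.67 in myr_Set, and lay -0.13 from genes of its level. Setl2, another close copy, had 7.91, 8.17 and 7.75 against 8.05, 8.07 and 8.19, a difference of 0.16 ± 0.21 (SE), or 0.59 relative to level. Probes of such copies may take signal from Set itself. The labels do not say whether a probe detects the construct, and these values do not check the labels.

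Genes of Set's known partners lay near 0 as lists. Of 21 protein phosphatase 2A genes measured, 3 were lower at an unadjusted p under 0.05 and none higher (1 and 0 without myr_Set array 1), and the median level-relative difference was -0.06. Those 3 were regulatory subunits, Ppp2r3c (-0.72 ± 0.26 SE), Ppp2r2d (-0.82 ± 0.26) and Ppp2r2a (-1.06 ± 0.44). The scaffold subunit Ppp2r1a had 9.79, 9.29 and 9.63 in mCherry and 8.29, 9.18 and 9.77 in myr_Set, and was 0.18 above genes of its level. Of 20 Set relatives and histone chaperones, 3 were lower (1 without myr_Set array 1), and the median was -0.06. Nap1l3, a nucleosome assembly protein of neurons, had 8.20, 8.31 and 7.92 against 6.70, 7.51 and 7.75 (-0.82 ± 0.27). Nap1l1, the most abundant of them, lay at 0.09 relative to level.

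Enzymes that attach or remove lipids, the class of reaction that anchors myr-Set-β, had the lowest median of the 39 lists with all arrays. Of 16 genes measured, 6 were lower at an unadjusted p under 0.05, and 13 were below 0 relative to level. The median level-relative difference was -0.35, but -0.16 without myr_Set array 1, when 2 genes were lower and ganglion cell markers and postsynaptic genes had medians as low (both -0.16), and -0.58 without array 3. By array, the list stood at 0.10, -0.01 and 0.20 in mCherry and at -0.28, -0.06 and 0.07 in myr_Set relative to the mean of the 6 arrays, so that the groups overlapped. The member lowest relative to level was Zdhhc2, a palmitoyltransferase, with 7.91, 7.16 and 8.40 against 6.38, 6.78 and 7.64 (-0.89 ± 0.39 SE).

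Zdhhc13, of the same enzyme family, had 8.32, 7.67 and 8.22 in mCherry and 7.24, 6.93 and 7.50 in myr_Set, and did not overlap (-0.85 ± 0.23 SE). Fnta, the shared subunit of farnesyl and geranylgeranyl transferases, had 8.92, 8.47 and 9.01 against 6.64, 8.27 and 8.41 (-1.03 ± 0.43). Without myr_Set array 1 the difference of Fnta was -0.46. Zdhhc8 was the highest member, at 0.49 relative to level, and Metap1, which removes the first methionine before myristoylation, lay at -0.04.

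Chromatin and RNA lists were centred near 0 as well. Histone acetylation genes had a median level-relative difference of -0.07 over 24 genes, 1 lower at an unadjusted p under 0.05, which was Hdac2 (9.16, 8.79 and 9.29 against 7.62, 8.49 and 8.67). Hdac1 was the lowest relative to level, at -0.47, and Brd3, a reader of acetylated histones, the highest, at 0.37. Of 54 genes of the core transcription machinery 8 were lower and of 61 splicing factors 7, with 2 of each without myr_Set array 1. Med6, a Mediator subunit, had 7.76, 7.67 and 7.46 in mCherry and 6.91, 6.91 and 7.14 in myr_Set (-0.65 ± 0.17 SE, limma adjusted p = 0.447), and its single arrays lay at -0.50, -0.60 and -0.50 relative to level. Gemin2, of the SMN complex that assembles splicing particles, lay at -0.66, -0.55 and -0.48. Sf3a3 and Tra2b, which act in splicing, differed by -1.05 ± 0.41 and -1.13 ± 0.38.

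Transcripts of axon growth were also near 0 as lists. Of 28 regeneration-associated genes measured, 3 were lower at an unadjusted p under 0.05 and none higher (1 and 0 without myr_Set array 1), and the median level-relative difference was 0.05. Gal, the neuropeptide galanin, was the highest at 0.58, from 9.60, 8.65 and 8.91 in mCherry and 8.41, 8.94 and 9.78 in myr_Set, where the groups overlapped. Npy, another neuropeptide, had 10.16, 8.63 and 7.75 against 7.47, 7.85 and 8.33 and spread widely within the controls. Of 18 Kruppel-like and Sp factors, which include brakes and promoters of axon growth, 2 were lower (1 without myr_Set array 1), and the median was -0.11. Klf7, the most abundant, lay at 0.06 relative to level, Klf4 at 0.51 and Klf9 at -0.45. Sp4, a factor of neuronal genes, was lower on all arrays, with 7.51, 7.40 and 7.67 against 6.76, 6.94 and 7.13 (-0.59 ± 0.18 SE).

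Cytoskeletal lists lay within 0.15 of 0. Tubulins had a median level-relative difference of 0.11 over 16 genes, microtubule and growth cone regulators 0.01 over 33, actin regulators -0.01 over 34 and motors -0.02 over 37. Gap43, a growth cone membrane protein, had 12.07, 11.35 and 11.45 in mCherry and 11.03, 11.29 and 11.57 in myr_Set. Dpysl3, a collapsin response mediator, had 10.23, 10.09 and 9.65 against 8.51, 9.19 and 9.54 without overlap (-0.91 ± 0.28 SE), and Tuba4a 9.02, 8.61 and 8.77 against 7.41, 7.91 and 8.56 (-0.84 ± 0.27). Of the motor genes 8 were lower at an unadjusted p under 0.05, but 1 without myr_Set array 1. Among them, the dynactin subunits Dctn5 and Actr10 differed by -0.98 ± 0.33 and -0.89 ± 0.36. Arpc1b, a subunit of the actin-branching complex, was the highest of the actin list relative to level (1.13), with 7.90, 8.16 and 8.36 against 9.26, 8.23 and 8.65.

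Guidance, synapse and channel lists had medians below 0, which for synapse and channel lists rested on mCherry array 1. Axon guidance had a median of -0.14 over 37 genes, of which 29 were below 0 and 4 lower at an unadjusted p under 0.05. Without myr_Set array 1 the median was -0.05, with 1 gene lower. Besides Tenm3, Efna5, an ephrin ligand that repels ganglion cell axons, had 9.31, 8.13 and 7.96 in mCherry and 7.45, 7.29 and 7.76 in myr_Set (-0.96 ± 0.37 SE). Postsynaptic receptors and scaffolds had a median of -0.20 over 22 genes, 18 below 0, but 0.001 without mCherry array 1, the array in which the list stood highest (0.48). Of these genes 3 were lower at an unadjusted p under 0.05, and 3 without myr_Set array 1. Gphn, the scaffold gephyrin of inhibitory synapses, had 7.99, 7.44 and 8.07 against 6.49, 7.14 and 7.37 (-0.83 ± 0.26). Nlgn1, a neuroligin, had 7.78, 7.20 and 7.13 against 6.52, 6.74 and 6.89 (-0.65 ± 0.21), and its single myr_Set arrays lay at -0.69, -0.52 and -0.52 relative to level.

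Presynaptic genes had a median of -0.10 over 36 genes, 26 below 0 and 3 lower at an unadjusted p under 0.05 (1 without myr_Set array 1). The median was 0.0067 without mCherry array 1, in which the list stood at 0.42, and -0.24 without mCherry array 3. Nsf, the enzyme that takes apart used fusion complexes, had 9.03, 8.40 and 8.33 in mCherry and 6.96, 7.89 and 8.20 in myr_Set without overlap (-0.90 ± 0.34 SE). Snap25, a fusion protein of synaptic vesicles and the most abundant of the list, had 11.84, 10.86 and 11.16 against 10.08, 10.50 and 11.003 and overlapped.

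Voltage-gated channels had a median of -0.13 over 29 genes, 3 of them lower at an unadjusted p under 0.05 (1 without myr_Set array 1). Their median was -0.02 without mCherry array 1 and -0.21 without mCherry array 3. Scn3b, a sodium channel subunit, had 9.04, 7.96 and 8.79 in mCherry and 6.46, 7.56 and 8.14 in myr_Set (-1.21 ± 0.44 SE). Kcna2, a potassium channel of axons, had 7.72, 7.83 and 8.03 against 7.31, 7.03 and 7.01 (-0.75 ± 0.19) and did not overlap; relative to level its arrays lay at -0.13, -0.58 and -0.82, lowest in the array of the widest range. Rgs4, which shortens G-protein signals, had the same order. It read 9.71, 9.17 and 9.63 against 8.30, 8.60 and 8.54, a difference of -1.02 ± 0.19 with an unadjusted p of 0.000434 and a limma adjusted p of 0.447. Relative to level Rgs4 was 0.13, -0.40 and -0.98 in the single arrays. Rgs11, in contrast, was 0.36 ± 0.16 higher, from 6.76, 6.75 and 6.70 to 7.14, 7.05 and 7.09.

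Kinase and growth factor signalling lay close to its level, with a median of -0.03 over 41 genes and 4 lower at an unadjusted p under 0.05 (0 without myr_Set array 1). Mapk10, a stress-activated kinase of neurons, had 9.83, 8.61 and 8.81 in mCherry and 7.18, 8.22 and 8.79 in myr_Set (-1.02 ± 0.44 SE), and Mapk8, a related kinase, 8.34, 7.83 and 8.06 against 6.95, 7.32 and 7.93 (-0.68 ± 0.26). Both overlapped the controls in array 3. Immediate early genes, which neurons switch on with activity, had a median of -0.04 over 14 genes. Jun, a transcription factor of injured neurons, had 10.14, 9.30 and 9.21 against 8.71, 9.23 and 9.45, and Fos, another, differed by -0.42 ± 0.19.

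Ganglion cell markers themselves had a median level-relative difference of -0.12 over 28 genes, with 5 lower at an unadjusted p under 0.05 and 2 without myr_Set array 1. The median was -0.02 without mCherry array 1, -0.20 without mCherry array 3 and -0.05 without myr_Set array 3. Pou4f3, a transcription factor of ganglion cells, had 7.79, 6.88 and 7.12 in mCherry and 6.84, 6.59 and 6.57 in myr_Set (-0.60 ± 0.23 SE). Isl1, another, had 9.54, 7.98 and 8.56 against 7.45, 8.07 and 8.07 (-0.83 ± 0.38) and overlapped. The summed signal of the 28 markers ranged from 16035 to 26769 in mCherry and from 10360 to 18389 in myr_Set. Its part in the neuronal lists above was not tested.

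Most mitochondrial and metabolic lists followed their level, mitochondrial ribosomal proteins less closely. These proteins had a median of -0.15 over 63 genes, 42 of them below 0 relative to level. With single arrays left out the median ranged from -0.247 to -0.081, and by array the groups overlapped. Of the 63 genes, 13 were lower at an unadjusted p under 0.05 (5 without myr_Set array 1). The 74 respiratory chain genes had 14 lower (1 without that array). Mrpl44 had 6.97, 7.18 and 7.51 in mCherry and 6.56, 6.45 and 6.53 in myr_Set (-0.71 ± 0.19 SE) and Mrpl28 7.76, 7.39 and 8.03 against 6.64, 6.72 and 7.23 (-0.86 ± 0.22), both without overlap. Ndufaf2 and Ndufaf5, assembly factors of complex I, differed by -0.84 ± 0.36 and -0.90 ± 0.31. Cytosolic ribosomal proteins had a median of 0.06 over 52 genes, glycolysis 0.01 over 21 and sterol synthesis 0.04 over 23. Fabp3, a carrier of fatty acids, stood out among 7 lipid carriers, with 9.47, 9.57 and 9.44 against 7.86, 8.64 and 8.49, a difference of -1.16 ± 0.21 (unadjusted p = 0.00047, limma adjusted p = 0.447). Relative to level its arrays lay at -0.26, -0.37 and -1.02.

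Stress and death lists had medians near 0. At an unadjusted p under 0.05, 5 of 30 stress response genes were lower and 1 higher (2 and 0 without myr_Set array 1), 4 of 29 heat shock genes were lower (0 without that array), and 2 of 21 death genes (1). The median level-relative differences were -0.05 over 30 genes of the integrated stress and unfolded protein response, -0.06 over 29 heat shock proteins and chaperonins, and -0.07 over 21 Bcl2 family genes, caspases and death factors. Aifm1, which supports the respiratory chain and can carry death signals to the nucleus, had 7.73, 7.55 and 7.67 in mCherry and 6.92, 7.01 and 7.09 in myr_Set (-0.64 ± 0.14 SE, unadjusted p = 0.00155, limma adjusted p = 0.447). Its single arrays lay at -0.50, -0.49 and -0.54 relative to level, nearly the same in all 3. Ddit3, the transcription factor CHOP of cell stress, had 10.02, 9.60 and 9.60 against 8.23, 8.74 and 9.38 (-0.96 ± 0.29). Phgdh, the first enzyme of serine synthesis and a target of the stress response, was higher, with 7.20, 7.08 and 7.58 against 8.22, 7.41 and 8.003 (0.59 ± 0.24), and overlapped. Hspa4l, a chaperone of the Hsp110 family, had 9.82, 8.69 and 8.87 against 7.58, 8.15 and 8.46 (-1.06 ± 0.38).

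Amacrine and horizontal cell markers, of other inner retinal neurons, had a median of -0.12 over 11 genes. Pax6, an eye field factor that ganglion cells share, had 9.22, 8.44 and 8.79 in mCherry and 7.10, 7.97 and 8.83 in myr_Set. Calb2, the calcium-binding protein calretinin, had 7.47, 6.67 and 7.96 against 6.42, 6.59 and 6.75 (-0.78 ± 0.31 SE). Both overlapped. Cell cycle genes had a median of 0.01 over 16 genes, and 20 listed genes, Mki67 and Top2a among them, were below the filter.

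Markers of microglia and macrophages, the immune cells of the retina, formed the highest list. Of 15 genes measured, 13 were above 0 relative to level, with a median of 0.37 beside 0.39 for odorant receptors. Without myr_Set array 1 these values were 0.29 and 0.13. At an unadjusted p under 0.05, 2 were higher and 0 lower. Cx3cr1, the fractalkine receptor, had 6.32, 6.90 and 6.47 in mCherry and 7.38, 7.17 and 7.18 in myr_Set (0.68 ± 0.19 SE), and C1qa, a complement component, 6.57, 7.46 and 6.92 against 7.83, 7.76 and 7.34 (0.66 ± 0.24). The odorant receptor medians of these arrays were between 6.81 and 7.61. The mCherry mean of Cx3cr1, 6.56, lay below the level filter. Cx3cr1 was thus measured only because its values in the other groups were higher. The markers Itgam, Ptprc, P2ry12 and Tmem119 were below the level filter. Fcer1g, with a signal well over that of the receptors, had 8.31, 8.42 and 9.09 against 8.20, 9.09 and 9.77, and Tyrobp 8.36, 8.67 and 8.78 against 7.82, 8.95 and 9.03; both overlapped. The list median was 0.03 without mCherry array 1, in which the markers stood lowest (-0.60). Summed signals ranged from 2313 to 3613 in mCherry and from 2407 to 3954 in myr_Set.

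Mural and matrix genes varied far more between arrays of a group than between groups. Sparc, a matrix protein of stromal cells, had 7.17, 12.12 and 12.68 in mCherry and 7.01, 11.80 and 12.54 in myr_Set. Tagln, of smooth muscle, had 7.93, 12.40 and 12.62 against 6.70, 12.01 and 12.59, and Fn1, fibronectin, 7.41, 10.90 and 11.47 against 7.12, 10.70 and 11.30. In both groups array 1 was low and array 3 highest. The chemokine Ccl2 had that order as well, with 8.10, 10.20 and 12.16 against 8.16, 10.20 and 11.60. Summed over the 13 mural, endothelial and fibroblast markers measured, the signal ranged from 1453 to 12817 in mCherry and from 1614 to 11706 in myr_Set. Their median level-relative difference was 0.21, and -0.33 without mCherry array 1. Pecam1 and Kdr had no cluster used here, and Cldn5, Tek and Vwf were below the filter.

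**Figure D5:**
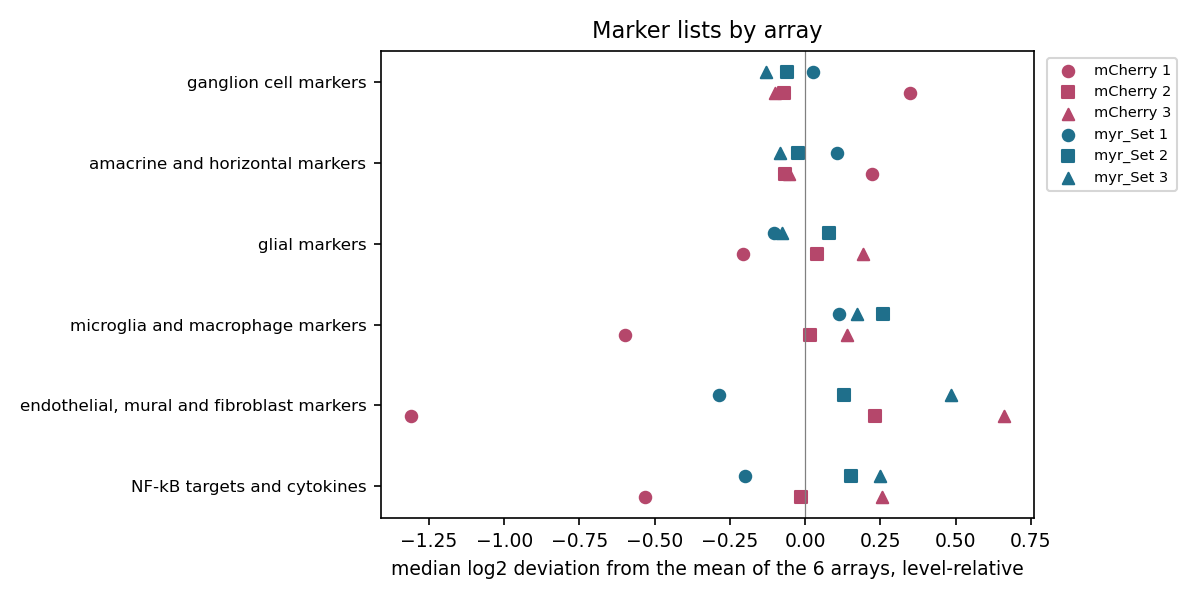
Median level-relative deviation of 6 gene lists from the mean of the 6 arrays (horizontal axis, log2), with 1 symbol per array. The mural and fibroblast list spans -1.31 to 0.66 within mCherry alone, and mCherry 1 is the lowest array for the microglial list (-0.60) and the highest for ganglion cell markers (0.35).

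NF-kB targets and cytokines had a median of 0.20 over 28 genes, and -0.08 without mCherry array 1, the array in which both this list (-0.53) and the mural markers (-1.31) were lowest. Tnf, a cytokine of immune cells, had 6.82, 7.21 and 7.60 in mCherry and 7.89, 7.72 and 7.54 in myr_Set (0.51 ± 0.22 SE). Interferon-induced genes had a median of 0.15 over 16 genes, and by array 0.22, 0.10 and 0.07 in myr_Set against -0.25, 0.05 and -0.05 in mCherry, 1 of 2 lists of 39 whose arrays did not overlap. The other was the splicing list. RT1-O1, a class I histocompatibility gene, was the highest interferon-list member, with 6.43, 5.65 and 6.14 against 7.19, 7.67 and 6.95 (1.20 ± 0.34, limma adjusted p = 0.447). The receptor medians of the 6 arrays ran from 6.81 to 7.61. RT1-O1 had an mCherry mean of 6.07, below the level filter, and passed only through its higher values in the other groups. B2m, the light chain of class I molecules, had 11.21, 12.05 and 12.64 against 9.74, 11.96 and 12.49. The part of the other cell types and of background in these lists was not tested.

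Genes for miRNAs, short RNAs that silence messages through a seed at bases 2 to 8, were singled out after their values were seen. Of 363, 97 passed the filter and 90 of these had a mature sequence in RefSeq. Of the 97, 9 were higher at an unadjusted p under 0.05 (9.28%) and 0 lower. Among 235 odorant receptors, 19 were higher (8.09%), and the background over all genes was 1.18%. The median level-relative difference of the miRNA genes was 0.33, and 0.13 without myr_Set array 1. Against the mCherry arrays it was 0.68, 0.34 and -0.03 in myr_Set arrays 1, 2 and 3. The 3 most abundant miRNA genes with an unadjusted p under 0.05 and a mature sequence in RefSeq were Mirlet7a1, Mir345 and Mir214. Mir761, with a mean level of 11.09, was more abundant but had no such sequence. Both mature arms of each, from RefSeq (GRCr8), are given 5′ to 3′ with the seed in capitals, to show which seeds the signal could stand for, since the array does not tell an arm from its precursor. Mirlet7a1 lies on the plus strand of chromosome 17 (5p arm 16320145 to 16320166), Mir345 on the plus strand of chromosome 6 (5p arm 133518418 to 133518438) and Mir214 on the plus strand of chromosome 13 (3p arm 77121713 to 77121733).
rno-let-7a-5p: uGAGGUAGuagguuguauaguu
rno-let-7a-1-3p: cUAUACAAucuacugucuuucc
rno-miR-345-5p: uGCUGACCccuaguccagugc
rno-miR-345-3p: cCCUGAACuaggggucuggaga
rno-miR-214-5p: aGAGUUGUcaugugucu
rno-miR-214-3p: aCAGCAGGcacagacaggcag
The 6 seeds differ, and that of let-7a-5p is carried by 9 mature names of the RefSeq table.

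Mirlet7a1 had 8.74, 8.84 and 8.82 in mCherry and 10.47, 9.67 and 9.18 in myr_Set (0.98 ± 0.29 SE, limma adjusted p = 0.447). Mir214 had 8.64, 8.63 and 8.46 against 9.12, 8.999 and 8.82 (0.40 ± 0.15), and Mir345 8.78, 8.81 and 8.79 against 9.55, 9.51 and 9.02 (0.57 ± 0.19). In all 3 genes the myr_Set arrays had the order of the receptor medians, with array 1 highest and array 3 lowest. Of the 9 higher miRNA genes, Mir761, Mir212, Mir362 and Mir193a instead had myr_Set array 2 lowest. Mir212 and Mir362 had mCherry means of 6.58 and 6.42, below the level filter, and passed only through higher values in the other groups.

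Whether the leading genes also set myr_Set apart from wild-type Set-β was tested in the same fit. The genes were chosen for extreme differences of these myr_Set arrays, which favours myr_Set values beyond those of wt_Set. In myr_Set all 15 lower genes lay below wt_Set, and 11 of the 13 higher genes above it, so these directions are no evidence of a stronger effect. In wt_Set all 15 lower genes lay below mCherry and 12 of the 13 higher genes above it. The choice by the same mCherry arrays favours that as well. The mean signal range was 4.16 in wt_Set, 4.16 in myr_Set and 4.45 in mCherry, so the lower range was not particular to myr_Set. Of the 30, 0 had a limma adjusted p under 0.05 between myr_Set and wt_Set, with a smallest value of 0.99981, and 2, Dlg5l15 and Tmem9, had an unadjusted p under 0.05. Iftap differed between the forms by -0.77, Tenm3 by -0.44, Fto by -0.19 and Cenpc by -0.08. Against the same mCherry arrays, which both comparisons share, Iftap was at -1.59 in myr_Set and -0.81 in wt_Set, Tenm3 at -1.17 and -0.73, Fto at -1.29 and -1.10, and Cenpc at -1.07 and -0.99.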

How the data were processed

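Per the labels' protocols and the submitters' processing notes, RNA was amplified, hybridised to Affymetrix Rat Gene 2.0 ST arrays and summarised with Expression Console and RMA, and the authors normalized each sample to its median. The deposited values are linear intensity values (median 100 on each array), and neither versions nor a build are named. Here they were log2-transformed. Of 36685 clusters, 18511 carried 1 symbol, 575 several and 17599 none; 18394 identifiers matched RefSeq (GRCr8, names only). Each gene is its cluster of highest mean. Clusters with a mean log2 intensity under 6.65, the median of all clusters, were left out. This mean was taken over the arrays of all groups, so a gene could pass with a group mean below it. Examples among higher genes are Cx3cr1 (mCherry mean 6.56) and Or10al27 (6.45). Examples among lower genes are Iftap, C1h9orf85 and Mrpl44 (myr_Set means 6.43, 6.47 and 6.51).

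Group means of all 9 arrays were fitted with limma 3.58.1 in R 4.3.3, two-sided, with Benjamini-Hochberg adjustment over 18343 clusters at a threshold of 0.05. The fit and the level-relative difference were tested on simulated data. Leading genes had a mean of at least 8 in the higher group, no overlap of arrays before and after cyclic loess, and no receptor, miRNA or placeholder name; 15 per direction were taken by level-relative difference. From each list the members highest and lowest relative to level and the most abundant were named, with up to 4 more by size. Members, lists and rules were chosen with earlier results of these data known. Alternatives were scaling, filter, samples, replicate block, array weights, variance model, neighbours, cluster choice and leaving out each array. The number of arrays limits the precision.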

Additional observations from a re-analysis of the deposited data

How the results depend on the processing

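The count of 0 genes at a limma adjusted p under 0.05 held under every alternative run except array weights, which called 3557 (smallest adjusted p 0.00626; 5163 at an unadjusted p under 0.05) in a fit whose weights did not converge. The unadjusted count of 1029 was 679 with quantile normalization, 483 with a filter at the 75th percentile and 388 with only both groups in the fit. It ranged from 270 without myr_Set array 1 to 3917 without myr_Set array 3, and was 290, 1744 and 453 without mCherry arrays 1, 2 and 3 and 511 without myr_Set array 2. Same-numbered arrays of both groups had correlations of -0.07, 0.02 and 0.24 between their deviations, so the numbers were not taken to pair them. Mural and chemokine genes did match by number, as Sparc (7.17, 12.12 and 12.68 against 7.01, 11.80 and 12.54), so that leaving out 1 array leaves its counterpart unmatched in those lists. With the replicate block 0 genes were called and 971 had an unadjusted p under 0.05, or 732 with cyclic loess as well. The difference in signal range was between -0.449 and -0.132 when single arrays were left out.

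Of 429 recomputed list medians, 398 moved by less than the spread between arrays, and 49 had another sign than the reported median, 3 of them in lists at 0.15 or more from 0. With single arrays left out, medians ranged from -0.146 to 0.076 (without myr_Set 3) for amacrine markers, -0.155 to 0.085 (without myr_Set 3) for glial markers, -0.122 to 0.033 (without myr_Set 2) for histone acetylation, -0.086 to 0.028 (without myr_Set 3) for Kruppel-like factors, -0.00021 (without mCherry 1) to 0.178 for tubulins, -0.042 (without myr_Set 1) to 0.228 for regulators of G-protein signalling and -0.060 to 0.0024 (without myr_Set 1) for the Bcl2 family. Cell cycle genes ranged to 0.050, with -0.111 without mCherry 1 and -0.080 without myr_Set 3. The other ranges were 0.030 to 0.444 for microglia, -0.105 to 0.046 for the proteasome, -0.243 to -0.018 for lipid carriers, -0.584 to -0.155 for lipid modification, 0.126 to 0.272 for interferon-induced genes and -0.163 to -0.010 for core transcription. With no level filter regulators of G-protein signalling were at -0.0057, Kruppel-like factors at -0.053 and lipid carriers at -0.043, and quantile normalization gave Kruppel-like factors -0.035. Of 300 recomputed values of leading genes, 262 moved by less than the spread between arrays, and Dlg5l15 turned to -0.052 with the mean of its clusters. The causes were not tested.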

Other observations

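Taken array by array, 39 genes lay more than 0.5 log2 units below genes of their level in each of the 3 myr_Set arrays, and 34 more than 0.5 above, of 10518. These genes were chosen after their values were seen, and no test was made. Of the 34 higher, 8 were odorant receptors and 2 miRNA genes. Some of the lower ones encode neuronal proteins that the lists did not hold. Slc7a14, an amino acid transporter of the retina, had 9.37, 8.58 and 7.44 in mCherry and 6.57, 7.41 and 7.62 in myr_Set. Tac1, the precursor of substance P, had 8.49, 7.60 and 7.96 against 6.99, 7.10 and 7.42, and Atp6v1e1, a subunit of the proton pump of vesicles, 10.18, 9.74 and 10.05 against 7.87, 8.97 and 9.53. The groups did not overlap for Tac1 and Atp6v1e1 and overlapped for Slc7a14. Among the higher ones, Rac2, a GTPase of blood cells, had 7.94, 8.57 and 8.25 against 8.14, 8.78 and 9.51, with overlap.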
